A study of Homo sapiens with 6 samples.

Results

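The genes described here are 9 genes of the PML and retinoic acid receptor system in NB4 cells: PML, RARA, RARG, RXRA, RXRB, NCOR1, TGM2, DHRS3 and ZBTB16. They were selected by symbol, by a rule that uses no measured value, although earlier results of these data were known when it was written, and each of the 9 had 1 row among the 18625 genes of the table. RNA-seq was performed on NB4, a human promyelocytic leukemia cell line that carries the PML-RARA fusion, grown in RPMI-1640 medium with serum. Cells were kept for 3 days with the solvent DMSO or with Tan I (Tanshinone I, a diterpene of Salvia miltiorrhiza) at 10 μM, and 3 libraries were made for each group. The study asked how Tan I alters gene expression in malignant myeloid cells. Both groups carry the fusion, and the labels name no retinoid in either. NB4 is a single cell line, and the labels do not say whether the libraries of a group came from separate cultures, so p-values measure only the spread between these libraries.

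Retinoic acid receptors (RARs) bind DNA as pairs with retinoid X receptors (RXRs). Without ligand the pair holds corepressors such as NCOR1 with histone deacetylases, and retinoic acid exchanges these for coactivators so that target genes are transcribed. In acute promyelocytic leukemia the translocation between chromosomes 15 and 17 joins PML to RARA, and the fusion protein represses retinoid targets and disperses PML nuclear bodies. ZBTB16, which encodes the zinc finger repressor PLZF, is a rarer fusion partner of RARA in this disease. The reads of a PML-RARA fusion transcript fall on PML exons and on RARA exons, so in NB4 the values of both genes hold fusion and normal transcripts that cannot be told apart here.

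Between 21502760 and 31679138 reads per library fell on the listed genes, with the lowest number in Tan I replicate 3. The values used are normalized counts, that is reads divided by 1 size factor per library. Testing covered the 16887 genes whose mean reached 10. Their first principal component, with 70.8% of the variance, did not separate the groups. DMSO replicates 1, 2 and 3 scored -48.0, 41.1 and -26.7 on it, while Tan I replicates 1, 2 and 3 scored -46.8, 8.65 and 71.6. Of 7 markers of promyelocytes, 6 were measured, with MPO, the myeloperoxidase of primary granules, at 62588 ± 1949.8 normalized counts with DMSO and 36602 ± 3112 with Tan I (SD, 3 libraries a group). ELANE, the neutrophil elastase gene, was not analysed here. The summed count of the 6 markers ran from 71171 to 77317 in DMSO and from 42027 to 50381 in Tan I. Most of this sum was MPO. Of the 6 markers, 5 had a lower mean in Tan I and 1, CD33, had a higher mean. In the values as deposited, the groups of MPO and CTSG did not overlap, and those of the other markers did. Among all genes tested, 7.89% had groups that did not overlap. With libraries rescaled to equal totals, PRTN3 and AZU1 of these markers separated too, with Tan I below, where 8.3% of all genes separated. The 5 measured markers of mature granulocytes and monocytes summed to between 2685 and 2981 in DMSO and between 2230 and 2667 in Tan I, mostly from CSF3R, the receptor of granulocyte colony-stimulating factor, and then from ITGAM. CD14, CSF1R and CXCR2 stayed between 3.73 and 28.3 normalized counts in each library. These 3 had a higher mean in Tan I, while CSF3R and ITGAM, the other 2, had a lower mean. The median log2 fold change of the 5 was 0.46. The 4 measured lymphoid and erythroid markers summed to between 195 and 239 in DMSO and between 195 and 205 in Tan I. In such bulk samples, fewer cells of a type and less RNA per cell cannot be told apart.

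None of the 9 genes passed the test between Tan I and DMSO. In limma on log2(normalized count + 1), 0 of 9 had an unadjusted p no higher than 0.05 together with a log2 fold change of 0.25 or more in size, where 2.42% of all tested genes did. With Benjamini-Hochberg adjustment over the 16887 genes, 0 of 9 members and 0% of all genes were called, and the adjusted p of each member was 0.999. On p alone, unadjusted, 0 of 9 members passed in limma, edgeR or DESeq2. Over all genes, edgeR on recovered reads called 0 with adjustment and 410 genes had an unadjusted p no higher than 0.05 in it, while DESeq2 called 16 with adjustment. For 1 of the 9, PML, the groups did not overlap in the values as deposited. Among all genes tested, 7.89% had groups that did not overlap, and 3.92% had each Tan I library above the DMSO libraries. Which members separated depended on the scaling. With libraries rescaled to equal totals the groups of PML overlapped, those of RARA separated with Tan I above and those of RXRA with Tan I below, where 8.3% of all genes separated. With quantile normalization RARA alone of the 9 separated, with Tan I above, where 7.53% of all genes did. The median log2 fold change of the 9 was 0.0029, and that of all genes tested was -0.0016.

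**Figure D1:**
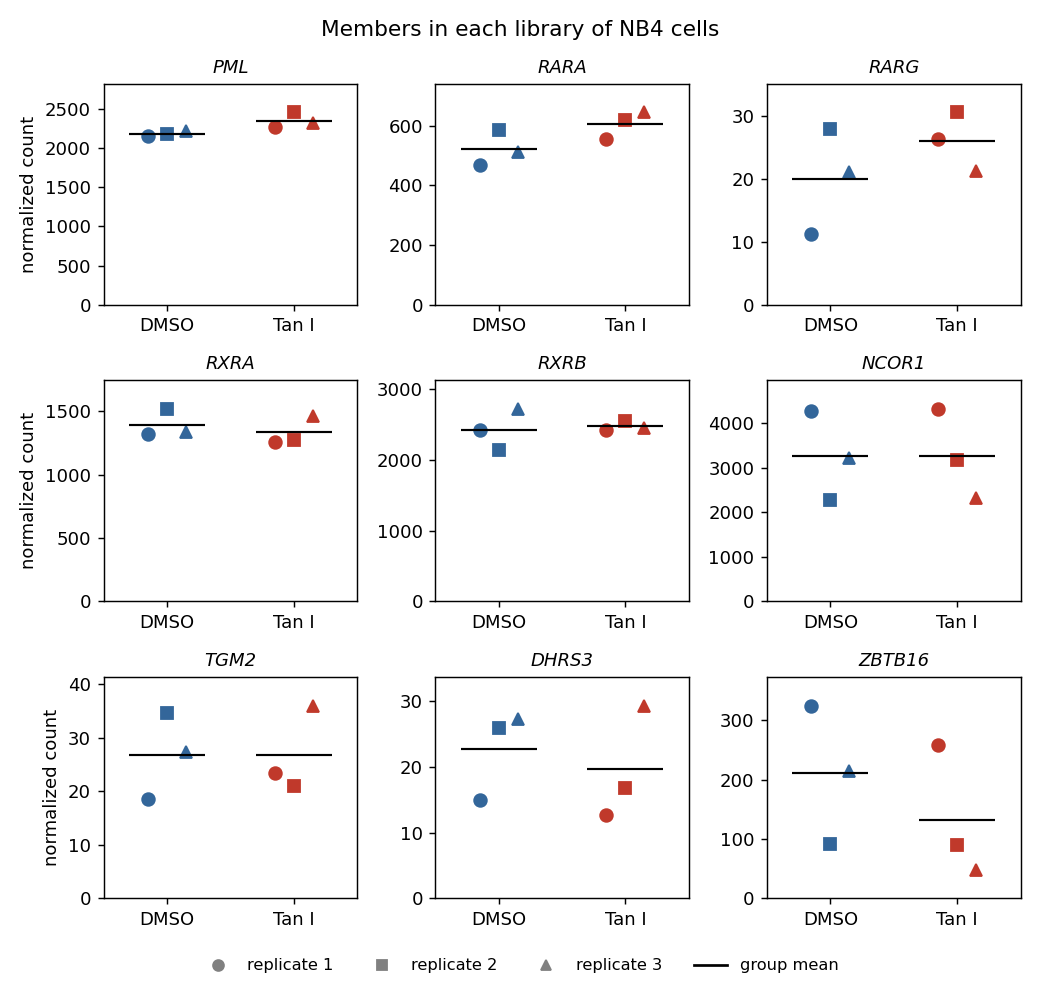
Normalized count (vertical axis, linear from 0) of each of the 9 members in the 3 DMSO and the 3 Tan I libraries of NB4 cells; each point is a library, its shape gives the replicate number and the bar is the group mean. In these values as deposited, PML is the gene whose Tan I points all lie above its DMSO points (its groups overlap under equal totals or quantile normalization), and the points of NCOR1 and ZBTB16 spread widely within both groups.

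PML, the organizer of nuclear bodies and the 5′ partner of the fusion, was at a nearly constant level in the values as deposited. The gene (ENSG00000140464) lies at chr15:73994673-74047827 on the + strand of GRCh38, with 9 exons in its canonical transcript. It had 2146, 2176 and 2218 normalized counts in DMSO replicates 1, 2 and 3 and 2268, 2449 and 2320.4 in Tan I replicates 1, 2 and 3. The lowest Tan I library lay just above the highest DMSO library. With equal totals Tan I replicate 3 was instead the lowest of the 6 at 2059, and the log2 fold change was 0.045. The group means were 2180.2 ± 36.1 normalized counts with DMSO and 2346 ± 93.4 with Tan I (SD, 3 libraries a group), a fitted difference of 7.54%. Its log2 fold change was 0.10 (95% interval -0.13 to 0.34, standard error 0.10), with unadjusted p = 0.323 and adjusted p = 0.999 in limma, so PML did not pass the test across genes. The exact two-sided permutation test gave p = 0.1, the smallest that 3 libraries against 3 allow. The spread of PML within groups was 0.044 on the log2 scale in the values as deposited. The median over all genes tested was 0.28, and only 0.859% of genes had a spread as small. With equal totals the libraries of PML ran from 2059 to 2438 normalized counts, and their spread was not ranked. By the root mean square difference between profiles over the 6 libraries, the genes nearest to PML among 12621 genes with a mean of at least 50 were ARHGAP45 (0.014 on the log2 scale), SEH1L (0.016) and E2F4 (0.021).

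RARA is the receptor that forms the 3′ part of the fusion. It lies at chr17:40309180-40357643 on the + strand (ENSG00000131759, 9 exons in the canonical transcript). It had 467, 586 and 513 normalized counts in DMSO replicates 1, 2 and 3 and 556, 618 and 644 in Tan I replicates 1, 2 and 3. Tan I replicate 1 lay below DMSO replicate 2, so the groups overlapped, although the 2 highest values were both from Tan I. In order of the component score, from DMSO replicate 1 to Tan I replicate 3, the counts were 467, 556, 513, 618, 586 and 644, mostly higher at higher scores, and with the score as a covariate the log2 fold change was 0.16 (unadjusted p = 0.0626 and adjusted p = 0.35 in limma). The means were 522 ± 59.7 normalized counts with DMSO and 606 ± 45.1 with Tan I (SD, 3 libraries a group). Its fitted log2 difference was 0.22 (95% interval -0.10 to 0.54, standard error 0.14), with unadjusted p = 0.151 and adjusted p = 0.999 in limma, and p = 0.2 in the exact permutation test. The interval in percent ran from -6.73 to 45.1, so a rise of more than 45.1% lies outside it. Antisense genes share 11.7% (RARA-AS1), 6.1% (ENSG00000278918) and 3.5% (ENSG00000287644) of its exon bases, and the strand setting of the counting is not given in the sources used here. The profiles nearest to that of RARA included those of NMD3 and C1orf162, each at 0.035 on the log2 scale.

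RARG, the receptor prominent in skin and in hematopoietic stem cells, was barely expressed. The gene (ENSG00000172819) lies at chr12:53210567-53232980 on the - strand. It had 11.2, 27.9 and 21.1 normalized counts in DMSO replicates 1, 2 and 3 and 26.4, 30.6 and 21.3 in Tan I replicates 1, 2 and 3. These rest on 12, 29 and 27 reads in DMSO and 27, 29 and 16 in Tan I. DMSO replicate 1 was the lowest of the 6 libraries, and the other DMSO libraries lay within or near the range of Tan I. The log2 fold change of RARG was 0.44 (95% interval -0.49 to 1.36, standard error 0.40), with p = 0.4 in the exact permutation test. The third receptor gene, RARB, which is itself a classical retinoid target, had a mean under 10 and was not tested. It ran between 0 and 11.6 normalized counts over the 6 libraries.

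The RXRs, the shared partners of the RARs and of several other nuclear receptors, were both well expressed, and neither passed the test. RXRA (ENSG00000186350, chr9:134317098-134440585, + strand) had 1321, 1516 and 1339 normalized counts in DMSO replicates 1, 2 and 3 and 1261, 1275 and 1462 in Tan I replicates 1, 2 and 3. The groups overlapped, with the highest value in DMSO replicate 2 and the lowest in Tan I replicate 1, although with equal totals each Tan I library lay below the DMSO libraries. RXRA had a log2 fold change of -0.064 (95% interval -0.34 to 0.21, standard error 0.12), with p = 0.5 in the exact permutation test. RXRB (ENSG00000204231, chr6:33193588-33200665, - strand) had 2425, 2136 and 2717 normalized counts in DMSO replicates 1, 2 and 3 and 2419, 2555 and 2454 in Tan I replicates 1, 2 and 3. All Tan I values of RXRB fell inside the range of the DMSO values. RXRB had a log2 fold change of 0.036 (95% interval -0.25 to 0.32, standard error 0.12), with p = 0.8 in the exact permutation test. SLC39A7 on the opposite strand shares 9.3% of the exon bases of RXRB. RXRG was not analysed here.

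NCOR1, the corepressor that tethers histone deacetylase HDAC3 to unliganded receptors, had equal means and a wide spread. The gene (ENSG00000141027) lies at chr17:16029065-16218185 on the - strand, with 46 exons in the canonical transcript. It had 4257, 2279 and 3224 normalized counts in DMSO replicates 1, 2 and 3 and 4308, 3159.6 and 2311 in Tan I replicates 1, 2 and 3. Replicate 1 of each group was high, and DMSO replicate 2 and Tan I replicate 3 were low by a similar amount. The means were 3253 ± 989 normalized counts with DMSO and 3259.7 ± 1002 with Tan I (SD, 3 libraries a group). The log2 fold change was 0.0029 (95% interval -0.67 to 0.67, standard error 0.29), with p = 1 in the exact permutation test. The highest library held 1.89 times the lowest, and the 95% interval of the fold ran from 0.629 to 1.60. In order of the principal component score, from DMSO replicate 1 (lowest) through Tan I replicate 1, DMSO replicate 3, Tan I replicate 2 and DMSO replicate 2 to Tan I replicate 3, the counts were 4257, 4308, 3224, 3159.6, 2279 and 2311. What sets this order was not tested. GENCODE lists pseudogenes of NCOR1, and multi-mapped reads were removed, so its count is uncertain where copies are identical. TTC19 and PIGL on the other strand share 2.2% and 2.1% of its exon bases.

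ZBTB16, the gene of PLZF, followed the same order of libraries more steeply. It lies at chr11:114059041-114256765 on the + strand (ENSG00000109906). It had 324, 91.5 and 215 normalized counts in DMSO replicates 1, 2 and 3 and 259, 89.6 and 46.7 in Tan I replicates 1, 2 and 3. Within DMSO alone the highest library was over 3 times the lowest, and the groups overlapped. The means were 210.3 ± 117 normalized counts with DMSO and 132 ± 112 with Tan I (SD, 3 libraries a group). The log2 fold change was -0.84 (95% interval -2.42 to 0.73, standard error 0.67), the largest in size of the 9, with p = 0.4 in the exact permutation test. In order of the component score its counts were 324, 259, 215, 89.6, 91.5 and 46.7. Its spread within groups of 1.09 on the log2 scale exceeded that of 96.3% of the genes tested. Without Tan I replicate 1 the log2 fold change was -1.51 (unadjusted p = 0.0285 and adjusted p = 0.532 in limma). With the component score as a covariate it was -0.39 (unadjusted p = 0.0218, adjusted p = 0.237 in limma).

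**Figure D2:**
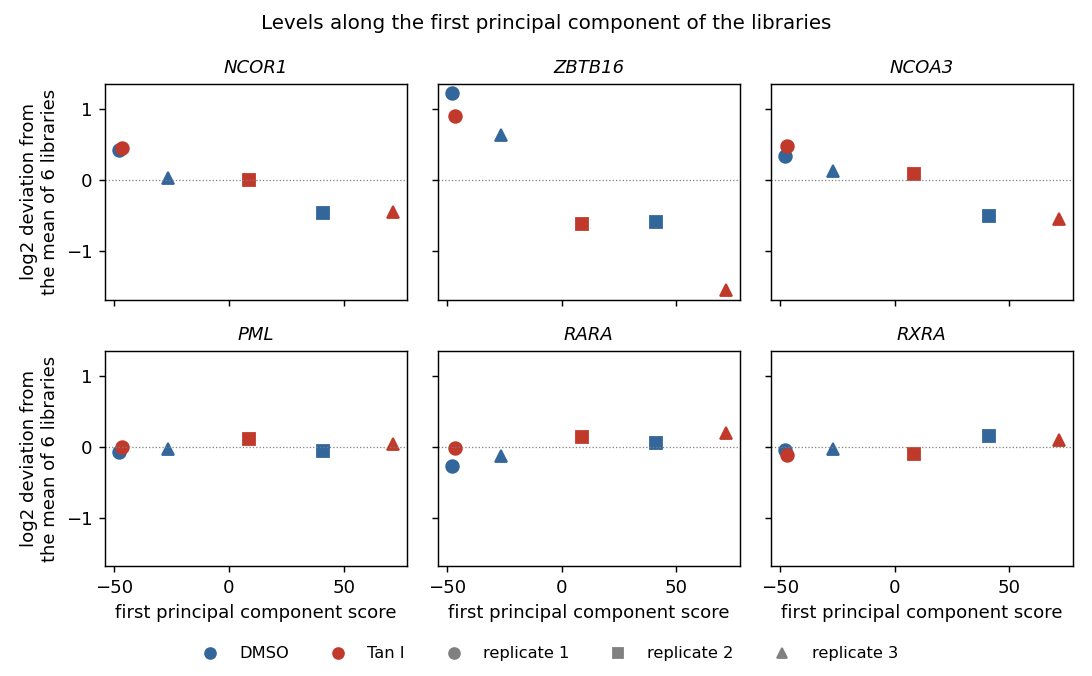
Log2 deviation from the mean of the 6 libraries (vertical axis) of NCOR1, ZBTB16, NCOA3, PML, RARA and RXRA against the score of each library on the first principal component of all tested genes (horizontal axis, no unit); color gives the group and shape the replicate number. NCOR1, ZBTB16 and NCOA3 are lower at higher scores within each group (scores from -48.0 to 41.1 in DMSO and from -46.8 to 71.6 in Tan I). RARA goes from low to high over a smaller range, and PML and RXRA stay close to 0.

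TGM2 and DHRS3, whose transcription retinoic acid raises in many cells, are commonly read as markers of retinoid activity. TGM2 encodes tissue transglutaminase, and DHRS3 an enzyme that reduces retinaldehyde back to retinol. Both had low counts, and neither passed the test. TGM2 (ENSG00000198959, chr20:38127385-38166578, - strand) had 18.6, 34.7 and 27.3 normalized counts in DMSO replicates 1, 2 and 3 and 23.5, 21.1 and 36 in Tan I replicates 1, 2 and 3. The reads behind them were 20, 36 and 35 reads in DMSO and 24, 20 and 27 in Tan I. The highest and the lowest library differed 1.93 times, and both groups covered nearly the same range. The means of TGM2 were 26.9 ± 8.02 normalized counts with DMSO and 26.8 ± 8.02 with Tan I (SD, 3 libraries a group). Its log2 fold change was 0.0027 (95% interval -0.83 to 0.83, standard error 0.36), that is a fold between 0.563 and 1.78, with p = 1 in the exact permutation test. DHRS3 (ENSG00000162496, chr1:12567910-12618210, - strand) had 14.9, 26 and 27.3 normalized counts in DMSO replicates 1, 2 and 3 and 12.7, 16.9 and 29.3 in Tan I replicates 1, 2 and 3. The reads were 16, 27 and 35 reads in DMSO and 13, 16 and 22 in Tan I. The highest value was Tan I replicate 3 and the lowest Tan I replicate 1, so the treated libraries spanned the controls. The log2 fold change of DHRS3 was -0.24 (95% interval -1.22 to 0.75, standard error 0.42), that is a fold between 0.429 and 1.68, with p = 0.7 in the exact permutation test. Folds above 1.78 for TGM2 and above 1.68 for DHRS3 lie outside these intervals. RPRD1B on the other strand shares 5% of the exon bases of TGM2. The profiles nearest to TGM2 were AC090498.1, SMPD2 and ENDOG (0.050, 0.071 and 0.079 on the log2 scale), and those nearest to DHRS3 were TSPAN33, RPL12P6 and BX679664.3 (0.10, 0.14 and 0.14).

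The promoters of a retinoid target and of the receptor itself are shown for the elements that RAR and RXR pairs bind, which are direct repeats of a hexamer. The sequences are from RefSeq (GRCh38.p14), 250 bases before and 50 after an annotated start, and 6 of the 9 members had 13 of them. PML, TGM2 and ZBTB16 had no sequence and were not searched. Direct repeats spaced by 5 or by 2 bases were searched on both strands with each hexamer being AGGTCA or the variant AGTTCA, the variant GGGTCA or the variant GGTTCA. Of 35116 promoters, 0.088% held a repeat spaced by 5 and 0.04% one spaced by 2, and the 13 promoters of members held 0. Such repeats are so rare that 0 among 13 promoters does not set the members apart. The single hexamer AGGTCA, on either strand, was in 13.8% of all promoters and in 2 of the 13. Below are the DHRS3 promoter at the start of the gene (chr1:12618161-12618460, - strand), an inner DHRS3 promoter (chr1:12596564-12596863, - strand) and the RARA promoter at the start of the gene (chr17:40308930-40309229, + strand), each 5′ to 3′ on the strand of its gene. Capitals mark AGGTCA or its reverse complement. No match in these windows says nothing about elements elsewhere.
DHRS3 start: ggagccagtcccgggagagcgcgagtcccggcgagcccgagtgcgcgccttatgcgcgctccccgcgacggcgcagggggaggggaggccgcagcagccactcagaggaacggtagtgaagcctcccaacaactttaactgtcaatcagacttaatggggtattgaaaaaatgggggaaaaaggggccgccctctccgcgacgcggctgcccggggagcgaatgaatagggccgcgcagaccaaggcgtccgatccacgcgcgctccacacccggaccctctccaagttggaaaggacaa
DHRS3 inner: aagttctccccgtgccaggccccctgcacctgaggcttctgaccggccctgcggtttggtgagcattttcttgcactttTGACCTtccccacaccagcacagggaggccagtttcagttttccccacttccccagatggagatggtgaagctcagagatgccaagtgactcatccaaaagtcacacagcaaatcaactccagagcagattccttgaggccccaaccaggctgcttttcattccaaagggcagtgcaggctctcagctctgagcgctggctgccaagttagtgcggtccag
RARA start: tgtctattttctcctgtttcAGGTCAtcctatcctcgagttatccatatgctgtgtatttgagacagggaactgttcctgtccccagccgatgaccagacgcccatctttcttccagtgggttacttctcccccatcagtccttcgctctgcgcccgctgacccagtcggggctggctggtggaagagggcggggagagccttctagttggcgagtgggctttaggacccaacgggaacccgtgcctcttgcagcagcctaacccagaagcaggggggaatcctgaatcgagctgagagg

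**Figure D3:**
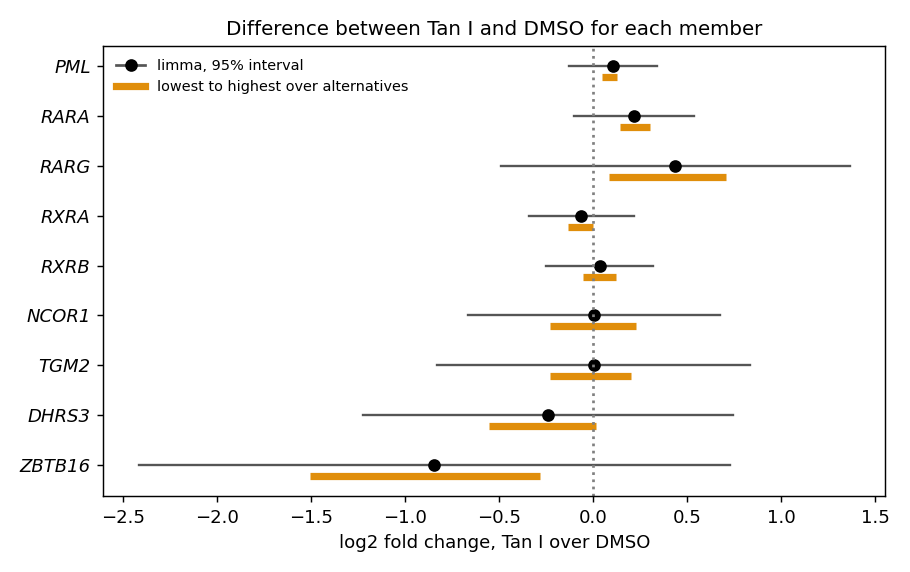
Log2 ratio of Tan I to DMSO (horizontal axis) of each member; the point and thin line are the limma estimate and its 95% interval, and the orange bar runs from the lowest to the highest estimate over the alternative analyses. Each interval includes 0, from the narrow one of PML (-0.13 to 0.34) to that of ZBTB16 (-2.42 to 0.73).

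Levels can be compared between genes only per length, here as normalized counts per kb of all annotated exon bases. In DMSO, RXRB was highest at 623 ± 74.5 per kb. NCOR1 followed at 208 ± 63.3 and PML at 172 ± 2.85, whose library ranges overlapped. RXRA at 115 ± 8.91 and RARA at 110.1 ± 12.6 per kb had library ranges that overlapped too. Within each DMSO library RXRA was nevertheless above RARA. ZBTB16 had 12.7 ± 7.04, DHRS3 6.47 ± 1.94, RARG 3.92 ± 1.64 and TGM2 3.38 ± 1.01 per kb (SD, n = 3 each), and each of these neighbours in the order overlapped. The gaps between RXRB and NCOR1, between PML and RXRA and between RARA and ZBTB16 were free of overlap in DMSO. In Tan I the same per-kb values were 635 for RXRB, 209 for NCOR1, 185 for PML, 110.3 for RXRA and 128 for RARA. RARA thus stood above RXRA in the Tan I means and within each Tan I library, though the ranges of the libraries overlapped. The isoforms used in NB4 were not known, so the lengths are those of the annotation.

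**Figure D4:**
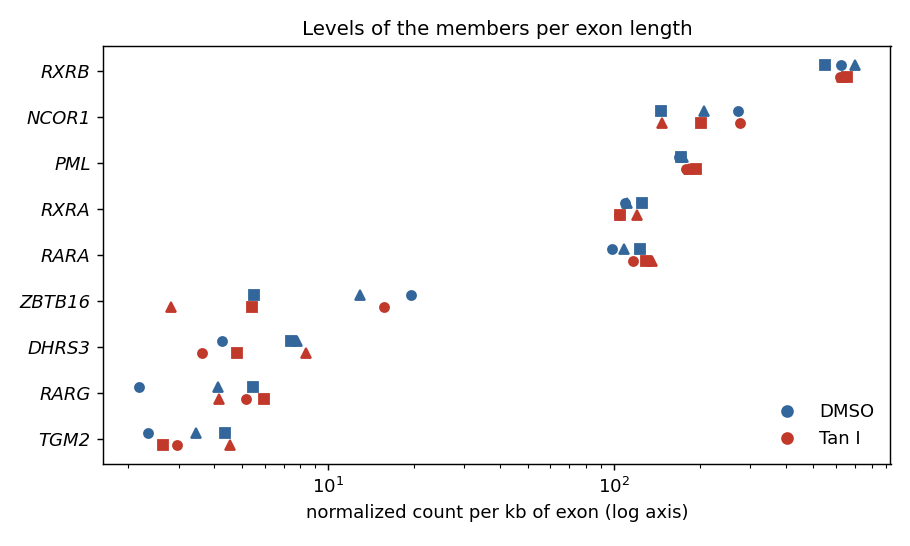
Normalized count per kb of exon (horizontal axis, log scale) of each member in the DMSO and the Tan I libraries; each point is a library and shape gives the replicate number as circle, square and triangle for 1, 2 and 3. RXRB stands alone from 548 to 697, NCOR1, PML, RXRA and RARA lie between 98.5 and 276, and ZBTB16, DHRS3, RARG and TGM2 lie at 19.6 or below.

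Other coregulators of nuclear receptors were read from a list of 18 genes, of which 17 were tested. Of these, 1 was called without adjustment, and it was lower in Tan I, where 2.42% of all genes were called in either direction. That gene was MED1, the Mediator subunit that contacts liganded nuclear receptors. It had 929, 978 and 954 normalized counts in DMSO replicates 1, 2 and 3 and 875, 681 and 675 in Tan I replicates 1, 2 and 3. Each Tan I library lay below the DMSO libraries, with a log2 fold change of -0.37 (95% interval -0.69 to -0.049, standard error 0.14) and unadjusted p = 0.0293 and adjusted p = 0.999 in limma. The call was lost without any 1 of the DMSO libraries or without Tan I replicate 2 or 3 (p between 0.0627 and 0.109 in limma). GPS2, a subunit of the NCOR1 complex, had the largest fold of the list, at 70.5 ± 12.8 normalized counts with DMSO and 91.6 ± 4.47 with Tan I (SD, 3 libraries a group), and each Tan I library lay above the DMSO libraries except with equal totals, where the groups overlapped (unadjusted p = 0.106 and adjusted p = 0.999 in limma). HDAC1 had the highest count of the list, at 5618 ± 1462 normalized counts with DMSO and 6112 ± 958 with Tan I (SD, 3 libraries a group). Some further genes were picked after their values were seen, for their likeness to NCOR1 across libraries. The coactivator NCOA3 had 1454, 807 and 1262 normalized counts in DMSO replicates 1, 2 and 3 and 1608, 1221 and 785 in Tan I replicates 1, 2 and 3, and the acetyltransferase CREBBP had 1176, 635 and 1031 normalized counts in DMSO replicates 1, 2 and 3 and 1224, 770.4 and 580.1 in Tan I replicates 1, 2 and 3. In these genes, as in NCOR1, replicate 1 of both groups was high and DMSO replicate 2 and Tan I replicate 3 were low. HDAC3 went the other way, with 1698, 2342 and 2011 normalized counts in DMSO replicates 1, 2 and 3 and 1730.0, 1901 and 2418 in Tan I replicates 1, 2 and 3. The list median was -0.09, against -0.0016 over all genes.

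Genes of retinoid uptake, binding and metabolism were measured less completely, with 13 of 25 listed genes tested and 0 called by limma, edgeR or DESeq2, also at an unadjusted p, against 2.42% of all genes called by limma. The groups of 2 of the 13 did not overlap, with Tan I above, against 3.92% of all genes. Among the 12 not analysed here were LRAT, the ALDH1A enzymes that make retinoic acid and the CYP26 enzymes that break it down. RDH11, a retinol dehydrogenase, had the highest count, and its groups did not overlap except with equal totals, where they did. It had 2555, 2369 and 2454 normalized counts in DMSO replicates 1, 2 and 3 and 2609, 2913 and 3078 in Tan I replicates 1, 2 and 3, with a log2 fold change of 0.22 (95% interval -0.042 to 0.48, standard error 0.11) and unadjusted p = 0.0879 and adjusted p = 0.999 in limma. BCO2, a carotenoid-cleaving enzyme, likewise did not overlap between groups, at 95.4 ± 5.71 normalized counts with DMSO and 120.1 ± 9.19 with Tan I (SD, 3 libraries a group), with unadjusted p = 0.0952 and adjusted p = 0.999 in limma. CRABP2, which carries retinoic acid to its receptors, had 339, 455 and 362 normalized counts in DMSO replicates 1, 2 and 3 and 374, 496 and 452 in Tan I replicates 1, 2 and 3, and its groups overlapped. The list median was 0.11.

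Among genes known to be induced by retinoic acid in myeloid or other cells, 17 of 21 were tested, and 2 were called without adjustment, both higher in Tan I, where 2.42% of all genes were called in either direction. ITGAX, the integrin chain CD11c, had 1977, 1862 and 2080.0 normalized counts in DMSO replicates 1, 2 and 3 and 2743, 2696 and 2318 in Tan I replicates 1, 2 and 3. Each Tan I library lay above the DMSO libraries, and the log2 fold change was 0.39 (95% interval 0.12 to 0.66, standard error 0.12), with unadjusted p = 0.0116 and adjusted p = 0.999 in limma. The call was lost when libraries were rescaled to equal totals (unadjusted p = 0.0789 and adjusted p = 0.999 in limma, with groups that overlapped) or without Tan I replicate 2. ICAM1, an adhesion molecule that many inflammatory signals also induce, had 242, 381 and 291 normalized counts in DMSO replicates 1, 2 and 3 and 406, 430.0 and 487 in Tan I replicates 1, 2 and 3. Its groups did not overlap either, with a fold between 1.08 and 1.99 in the 95% interval and unadjusted p = 0.022 and adjusted p = 0.999 in limma, and the call was lost without DMSO replicate 1 or 3 or Tan I replicate 2 or 3. With the component score as a covariate the adjusted p in limma was 0.00447 for ITGAX and 0.0551 for ICAM1. In that setting 194 of all genes were called with adjustment. HIC1, a repressor with few counts, had the largest fold of the list, at 10.4 ± 8.48 normalized counts with DMSO and 13.4 ± 4.93 with Tan I (SD, 3 libraries a group), and its groups overlapped. The classical leukemia cell readouts gave other values. CD38 had 411, 528 and 369.6 normalized counts in DMSO replicates 1, 2 and 3 and 390.0, 329 and 327 in Tan I replicates 1, 2 and 3, CEBPE had 212, 394 and 256 normalized counts in DMSO replicates 1, 2 and 3 and 202, 258 and 317 in Tan I replicates 1, 2 and 3, and ITGAM, the CD11b chain, had 433, 499.9 and 519 normalized counts in DMSO replicates 1, 2 and 3 and 478, 443 and 433 in Tan I replicates 1, 2 and 3. These 3, named after their values were seen, had log2 fold changes of -0.31, -0.12 and -0.097, and their groups overlapped. Of all 17, 11 had a positive and 6 a negative fold change, and the median was 0.068.

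The partners of RXR and the proteins of PML nuclear bodies showed no call either in limma, edgeR or DESeq2. For comparison, limma called 2.42% of all genes without adjustment, and 7.89% had groups that did not overlap. Of 12 other nuclear receptors 9 were tested and 0 called, and at an unadjusted p alone limma and edgeR had 0 and DESeq2 had 1. The groups of 3 of the 9 did not overlap, THRA and VDR with Tan I below and NR1H3 with Tan I above. VDR, the vitamin D receptor, named after its values were seen, had 853 ± 85.2 normalized counts with DMSO and 755 ± 33.1 with Tan I (SD, 3 libraries a group). THRA, the thyroid hormone receptor with the highest count of the list, had 1439.7, 1464 and 1528 normalized counts in DMSO replicates 1, 2 and 3 and 1320.5, 1286 and 1272 in Tan I replicates 1, 2 and 3. The log2 fold change of THRA was -0.19 (95% interval -0.43 to 0.041, standard error 0.10), with unadjusted p = 0.0934 and adjusted p = 0.999 in limma. NR1H3, the oxysterol receptor LXR alpha, had 227 ± 18.3 normalized counts with DMSO and 270.0 ± 39.2 with Tan I (SD, 3 libraries a group), with unadjusted p = 0.175 and adjusted p = 0.999 in limma. Of 20 nuclear body genes all were tested and 0 called, also 0 at an unadjusted p alone with each tool, with 11 fold changes positive, 9 negative and a median of 0.029. SUMO2, the modifier that PML binds and carries, had the highest count, at 5899 ± 934 normalized counts with DMSO and 6689 ± 1735 with Tan I (SD, 3 libraries a group). HIPK2, a kinase found in the bodies, had the largest fold, at 778 ± 234 normalized counts with DMSO and 624 ± 351 with Tan I (SD, 3 libraries a group), and its groups overlapped. Its log2 fold change of -0.42 was -0.041 without Tan I replicate 3, -0.22 without DMSO replicate 1, -0.67 without DMSO replicate 2 and -0.85 without Tan I replicate 1. Without Tan I replicate 1 HIPK2 was called without adjustment (unadjusted p = 0.0297 and adjusted p = 0.532 in limma), where 1496 of all genes were. SP100, a constant component of the bodies, was named after its values were seen, as its groups did not overlap. It had 726, 807 and 727 normalized counts in DMSO replicates 1, 2 and 3 and 889, 823 and 914 in Tan I replicates 1, 2 and 3. Of 8 further genes related to ZBTB16 or its partner CUL3, 7 were tested and 0 called, again 0 at an unadjusted p alone with each tool. CUL3, the highest, had 1705 ± 64.4 normalized counts with DMSO and 1694 ± 118 with Tan I (SD, 3 libraries a group), and HIC1, given above, had the largest fold of these too.

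**Figure D5:**
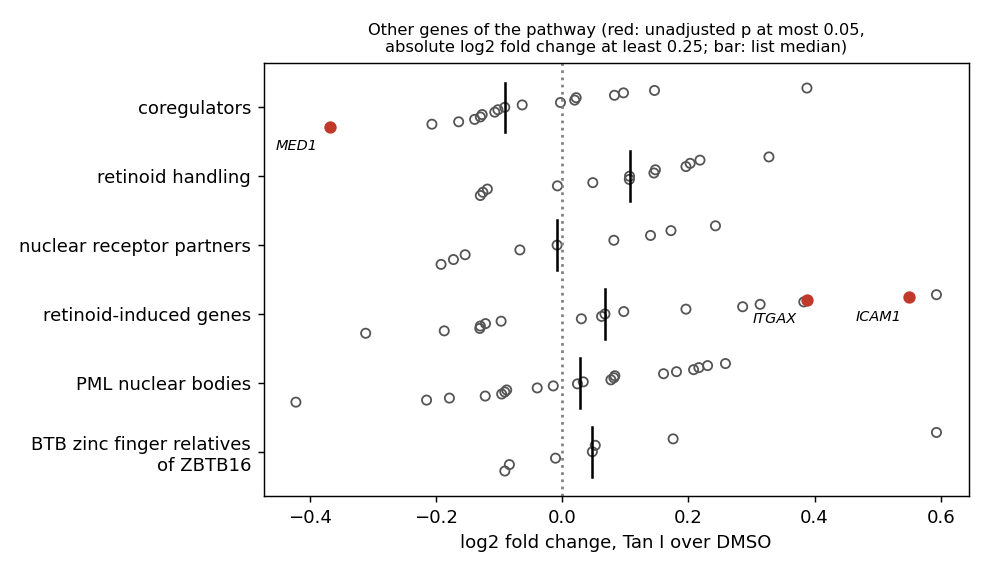
Log2 ratio of Tan I to DMSO (horizontal axis) of the tested genes of 6 lists; each circle is a gene, the bar is the list median, and the filled red circles mark genes called without adjustment. MED1 (-0.37), ITGAX (0.39) and ICAM1 (0.55) are the filled points, and the list medians lie between -0.09 and 0.11.

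The promyelocyte markers are given beside these genes because 2 of the 6 tested were called without adjustment in the same libraries, where 2.42% of all genes were. MPO had 60389, 64107 and 63267 normalized counts in DMSO replicates 1, 2 and 3 and 33279, 39449.8 and 37076 in Tan I replicates 1, 2 and 3, with a log2 fold change of -0.78 (95% interval -1.12 to -0.43, standard error 0.15) and unadjusted p = 0.000988 and adjusted p = 0.999 in limma. With the component score, which comes from the same 6 libraries, as a covariate its adjusted p in limma was 5.5e-05. In that setting 194 of all genes were called with adjustment. DESeq2 gave an adjusted p of 3.86e-09, where 16 of all genes were called. CTSG, cathepsin G of the same granules, had 1909 ± 438 normalized counts with DMSO and 1199 ± 333 with Tan I (SD, 3 libraries a group), with unadjusted p = 0.0262 and adjusted p = 0.999 in limma, a call lost without DMSO replicate 2 or 3 or Tan I replicate 1. The log2 fold change of CTSG was -0.69, -0.45 without Tan I replicate 1 and -0.84 with the component score as a covariate (adjusted p = 3.21e-05 in limma). Both calls were lower in Tan I, and CD33, the surface antigen, overlapped between groups. Their part in the values of the 9 members was not tested.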

How the data were processed

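RNA-seq reads of 6 NB4 libraries (3 DMSO, 3 Tan I) were, per the paper's methods and the labels, aligned by the authors to GRCh38 with STAR, freed of multi-mapped reads, counted with featureCounts and normalized with DESeq2; versions and annotation release are not given in the sources used here. The deposited signal values are normalized counts. They were whole multiples of 1 step per library (100% within 0.01), from which reads were recovered. Columns of the authors' own comparison (fold change, error, statistic, p-values) were not used. Groups came from sample titles.

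Groups were compared with limma 3.58.1 (R 4.3.3, with trend) on log2(normalized count + 1) over the 16887 genes with a mean of 10 or more, with Benjamini-Hochberg adjustment. Folds on this scale understate changes of low genes. A call needed p up to 0.05 and a log2 fold change of 0.25 or more in size. Single genes had exact permutation tests. Alternatives included edgeR 4.0.16 and DESeq2 1.42.0 on the recovered reads. The procedure was tested on simulated data, with results that are not reported here. Lengths, overlaps and positions came from GENCODE release 44 on GRCh38 (99.6% of identifiers found). Members and lists were chosen with earlier results of these data known. Named genes: all members; per list, each gene called without adjustment, the highest mean and the largest fold; for PML, RARA, TGM2 and DHRS3 the 3 nearest profiles; others are marked in the text, and a few items are not reported here.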

Additional observations from a re-analysis of the deposited data

How the results depend on the processing

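With 3 libraries a group and 12 to 36 reads per library on RARG, TGM2 and DHRS3, the intervals of their folds ran as far as 0.429 and 2.57. Log2 fold changes under the alternatives lay between 0.045 and 0.13 for PML, 0.14 and 0.30 for RARA, 0.086 and 0.71 for RARG, -0.13 and -0.00077 for RXRA and -1.51 and -0.28 for ZBTB16. The count of members called without adjustment went from 0 to 1 (ZBTB16) with the component score as a covariate and ran from 0 to 1 when 1 library was left out, where it was again ZBTB16, without Tan I replicate 1. The covariate also brought NCOR1 to 0.19 (unadjusted p = 0.0149 and adjusted p = 0.207 in limma). Adjusted, 0 members were called in any alternative. Outside the members, GPS2 and HIC1 were called without adjustment with the covariate (unadjusted p = 0.0391 and 0.0479, adjusted p = 0.297 and 0.319 in limma). BCO2 was called in limma without trend (unadjusted p = 0.0454, adjusted p = 0.999), where 556 of all genes were. Over all genes, 1496 were called without adjustment and 194 with it when the component score was a covariate, against 408 and 0, and DESeq2 called 16 with adjustment. Leaving out 1 library gave 160 to 1496 genes, the lowest when Tan I replicate 2 and the highest when Tan I replicate 1 was dropped (560 of the latter shared with the 1496 of the covariate), with 271 without Tan I replicate 3, 180 without DMSO replicate 1 and 201 without DMSO replicate 3. The component comes from the same 6 libraries, and the cause was not tested. Signs changed for RXRB, NCOR1, TGM2, DHRS3 and HIC1. RXRB was -0.0018 with quantile normalization and -0.024 with libraries rescaled to the same total, and -0.052 to 0.12 with 1 library left out. NCOR1 was -0.049 and -0.057 under the same 2 settings, and -0.23 to 0.23 with 1 library left out. TGM2 was -0.055 with the same total, -0.013 with edgeR, -0.013 with DESeq2 and -0.14 with the covariate, and -0.23 to 0.20 with 1 library left out. With 1 library left out DHRS3, at -0.24 with all 6, ran from -0.56 to 0.017 (without Tan I replicate 1), and HIC1, at 0.59 with all 6, from -0.025 (without DMSO replicate 2) to 1.18. The mean of at least 50 left RARG, TGM2 and DHRS3 untested. DESeq2 gave no adjusted p for 3602 genes. Same-numbered libraries deviated from their group means with correlations of 0.75, -0.088 and -0.45, so the numbers were not taken as pairs. The replicate block gave 348 genes without adjustment and 0 with it, and 0 members.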

Other observations

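Ratios within a library do not depend on the size factors, and those of a few pairs, picked after the values were seen, are given as a description with no test. The ratio of RARA to RXRA counts was 0.354, 0.386 and 0.383 in DMSO replicates 1, 2 and 3 and 0.441, 0.484 and 0.441 in Tan I replicates 1, 2 and 3, so the groups did not overlap, although neither gene was called. The ratio of RARA to PML, the fusion partners, ran from 0.218 to 0.269 in DMSO and from 0.245 to 0.278 in Tan I and overlapped.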
